A study of Mus musculus with 9 samples.

Results

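The genes described here are 10 members of the retinoic acid pathway, namely the synthesis enzymes Aldh1a2 and Aldh1a3, the retinaldehyde reductase Dhrs3, the clearing enzymes Cyp26a1 and Cyp26b1, the receptors Rara, Rarb and Rarg, and the binding proteins Crabp1 and Crabp2. They were found by gene symbol among the 32289 features shared by all 9 libraries, and each symbol matched 1 feature. The libraries hold single cells of mouse forelimb buds at E10.75 (37 to 39 somites) in a Swiss Albino background. Each library was made from the forelimb bud pair of 1 embryo. The 3 genotypes were wild type (Wt), EC1CRM8Δ/Δ (E1C8Δ/Δ) and EC1CRM5Δ/Δ (E1C5Δ/Δ), with 3 libraries each. Both mutants are homozygous for a compound deletion of enhancers at Grem1, in which EC1 is missing together with CRM8 or together with CRM5, so the genotypes share the loss of EC1. Grem1 encodes a secreted BMP antagonist of the posterior and distal limb bud mesenchyme, and both deletions lead to limbs with 4 digits. The deletions are carried by every cell of the embryo, so the 6 mutant libraries are germline models and are not specific to the mesenchyme.

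Retinoic acid is made from retinol in sequential oxidations, the last by aldehyde dehydrogenases of the ALDH1A family, while DHRS3 returns retinaldehyde to retinol. CYP26 enzymes oxidise retinoic acid and so set where it can act, CRABP proteins carry it inside the cell, and the receptors RARA, RARB and RARG bind DNA together with retinoid X receptors. In the early limb bud, retinoic acid from the flank acts on the proximal mesenchyme, where Meis1 and Meis2 are expressed, and Cyp26b1 under control of FGF signals from the distal ectoderm keeps the distal mesenchyme clear of it.

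The libraries differed in size, with 2571 to 28480 barcodes and 26620760 to 500559729 unique molecular identifiers (UMIs) each, and 592 to 8699 cells passed the filters. Mesenchymal cells were gated by Prrx1, Prrx2, Pdgfra, Tbx5 and Twist1, none of them a member, and numbered 461 to 6832 per library with a median of 15953 to 46918 UMIs per cell. Every E1C8Δ/Δ library was shallower than every other library. Its medians were 26491, 15953 and 22413 UMIs, beside 29231, 33154 and 46918 in Wt and 42684, 29953 and 32150 in E1C5Δ/Δ. Wt replicate 3 and E1C8Δ/Δ replicate 1 were the smallest, with 720 and 461 mesenchymal cells. Levels are given as CPM, a gene's share of all UMIs in the summed cells on a fixed scale. Summed markers of any other lineage were at most 8.38 CPM in the mesenchyme. Cells with several such markers had been gated out, except for markers of body wall and mesothelium, which were not used for this. Globin transcripts, which are not in those sums and were not used to gate cells, were at 198 to 1317 CPM in the mesenchyme of the 9 libraries, and their part in the results was not tested. No pair of libraries shared over 0.497% of the smaller library's barcodes. Grem1, the targeted gene, was at 43.4, 28.4 and 33.5 CPM in the Wt mesenchyme, at 11.7, 11.4 and 14.4 CPM in E1C8Δ/Δ and at 17.8, 16.2 and 25.3 CPM in E1C5Δ/Δ, and the mutant levels all lay below the Wt levels. All 3 Wt embryos were male by Xist and Y-linked UMIs, while 4 of the 6 mutant embryos (E1C8Δ/Δ replicates 1 and 2, E1C5Δ/Δ replicates 1 and 3) were female, so sex and genotype can be told apart only in part.

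To follow the members along the proximal-distal axis, the mesenchyme of each library was cut into 3 equal shares by a score of proximal (Meis1, Meis2, Irx3, Irx5, Pkdcc) and distal (Sall3, Lmo2, Wnt5a, Hoxa13, Hoxd13) genes. UMIs were summed per gate and library and compared by edgeR's quasi-likelihood test with Benjamini-Hochberg adjustment, and a gene was called at an adjusted p under 0.05. Gates are ranks within a library and not dissected tissue. In the Wt mesenchyme, 7 of the 9 members that passed the filter on low counts were called between the distal and proximal gates, against 57.0% of all genes tested. Dhrs3, Crabp1 and Cyp26b1 were higher distally, and Rara, Rarb, Rarg and Crabp2 were higher proximally. The median log2 fold change of the 9 members, distal over proximal, was 0.056, beside 0.0371 over all genes.

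Cyp26b1 (ENSMUSG00000063415, chr6:84571414-84593908 on the minus strand, GRCm38), the clearing enzyme of the limb mesenchyme, had the steepest rise toward the distal end. Its Wt level was 22, 20.3 and 17.03 CPM in the proximal gate, 67.0, 40.7 and 34.8 CPM in the middle gate and 223, 150.4 and 148 CPM in the distal gate. The 3 gates did not overlap, and the distal level exceeded the proximal level in each library. The log2 fold change, distal over proximal, was 3.18 ± 0.13 (SE, 3 Wt libraries, adjusted p = 4.8e-16). In 5 equal shares the Wt mean rose from 17.9 ± 2.04 CPM (SD, n = 3) at the proximal end through 23.9 ± 4.79, 42.1 ± 16 and 115 ± 35.8 CPM to 198 ± 45.8 CPM at the distal end. The neighbouring shares at the proximal end differed by no more than their SDs together, and the steep part of the profile lay from the middle share to the distal end.

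Rarb (ENSMUSG00000017491, chr14:16430839-16819156 on the minus strand), a receptor gene that is itself a classical target of retinoic acid, had the opposite profile. Its Wt level was 23.4, 26.8 and 18.2 CPM in the proximal gate, 4.6, 7.98 and 5.28 CPM in the middle gate and 0.699, 1.08 and 1.08 CPM in the distal gate. Again the 3 gates did not overlap. The log2 fold change, distal over proximal, was −4.64 ± 0.14 (adjusted p = 1.15e-18). Over the 5 shares the Wt mean fell from 25.9 ± 4.46 through 16.5 ± 5.28, 4.68 ± 1.88 and 1.75 ± 0.336 to 0.455 ± 0.191 CPM. The study used Rarb in its own proximal score and Cyp26b1 in its distal score, so these gradients are not independent evidence of position, although neither gene was used to gate the cells here.

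The promoter windows of the members, from 250 bases before to 50 bases after the RefSeq gene start (GRCm38.p6), were searched for the direct repeat that retinoic acid receptors are known to bind, since Rarb and Cyp26a1 are textbook targets. Windows were found for 8 of the 10 members, all but Aldh1a3 and Crabp2. The search took 2 hexamers in the same direction, spaced by 5 bases, on either strand. The hexamer could be the consensus AGGTCA, its variant GGGTCA with another first letter, or the variants AGTTCA and also GGTTCA with a T inside. It matched the windows of Rarb and Cyp26a1 and of no other member, and 0.0974% of the 32851 windows held such a repeat. Both matches were made of the variants with a T only, without the consensus. The search was made because these genes are textbook targets, so the match to them is no independent finding. With a spacing of 1 or 2 bases, 0.222% and 0.268% of all windows matched and 0 members did. The stretches are shown 5′ to 3′ on the strand of the gene with the hexamers in capitals, and those of Cyp26a1 read on the opposite strand.
Rarb, chr14:16575507-16575536, minus strand: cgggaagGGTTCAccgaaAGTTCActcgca
Cyp26a1, chr19:37697769-37697798, plus strand: ttaaagaTGAACTttgggTGAACTaatttg
The repeat began 53 bases before the RefSeq start of Rarb and 32 bases before that of Cyp26a1. The RefSeq start of Rarb (chr14:16575476) belongs to an internal promoter, 243.7 kb inside the GENCODE gene model whose coordinates are given above, while that of Cyp26a1 lies 10 bases inside its gene model. The Rarb stretch overlaps untranslated exon sequence in the annotation. The Cyp26a1 stretch does so only at its last base, where the gene model starts, and its repeat ends before that, at chr19:37697792. A match of letters is not evidence that a receptor was bound there in these cells.

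**Figure D1:**
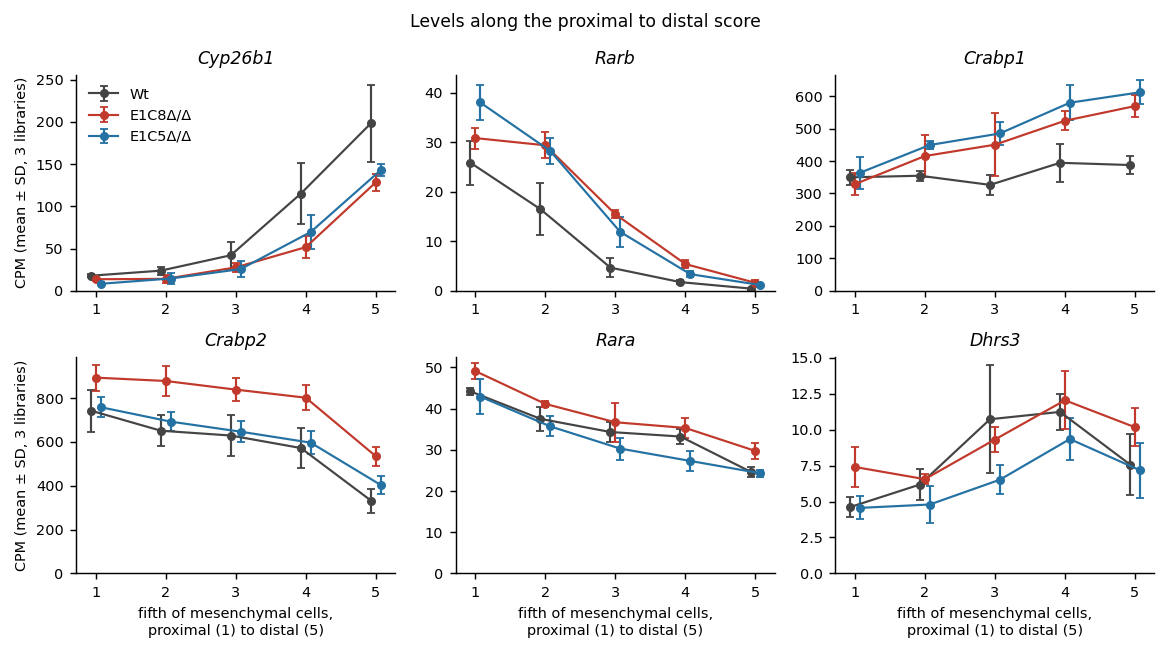
Level of the members in 5 equal shares of the mesenchyme ordered from proximal to distal (x axis) as CPM of the summed UMIs (y axis, from 0), for 6 of the members, with points at the mean of 3 libraries per genotype and bars for 1 SD. Cyp26b1 rises from 17.9 to 198 CPM and Rarb falls from 25.9 to 0.455 CPM over the Wt shares.

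The receptors that are expressed throughout the mesenchyme changed far less along the axis. Rara (ENSMUSG00000037992, chr11:98927818-98974942 on the plus strand) was at 41.3, 42.4 and 40.6 CPM in the proximal Wt gate and its mean over the 5 shares went from 44.2 CPM proximally to 24.7 CPM distally. The log2 fold change, distal over proximal, was −0.54 ± 0.04 (adjusted p = 2.58e-10). Rarg (ENSMUSG00000001288, chr15:102234938-102257517 on the minus strand) was at 59.8, 69.0 and 87.8 CPM in the proximal Wt gate, with a log2 fold change of −0.18 ± 0.04 (adjusted p = 0.000296). The test works within libraries, and the spread of Rarg between the Wt libraries was larger than this difference between gates.

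The binding proteins went in opposite directions. Crabp2 (ENSMUSG00000004885, chr3:87948666-87953376 on the plus strand), which delivers retinoic acid to its receptors, was at 614, 752 and 767 CPM in the proximal and at 338, 466 and 429.6 CPM in the distal Wt gate, and the gates did not overlap (log2 fold change −0.72 ± 0.04). Crabp1 (ENSMUSG00000032291, chr9:54764748-54773110 on the plus strand), the other cytoplasmic carrier, was at 359, 329.9 and 361 CPM in the proximal and at 422, 408 and 338 CPM in the distal Wt gate. These ranges overlapped, with Wt replicate 3 lower distally than proximally. Its log2 fold change of 0.23 ± 0.07 passed the test (adjusted p = 0.00656) but did not without Wt replicate 1 (0.19, adjusted p = 0.0802) or Wt replicate 2 (0.11, adjusted p = 0.325), nor by DESeq2 (0.18, adjusted p = 0.109).

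Dhrs3 (ENSMUSG00000066026, chr4:144892827-144928209 on the plus strand), which lowers the supply of retinaldehyde and is known to be induced by retinoic acid in many tissues, was at 5.76, 4.46 and 4.76 CPM in the proximal and 7.58, 8.14 and 11.1 CPM in the distal Wt gate. The distal level was the higher one in each library, and the log2 fold change was 0.81 ± 0.12 (adjusted p = 4.06e-06). Over the 5 shares its Wt mean was 4.61, 6.18, 10.72, 11.2 and 7.57 CPM, so the level was highest in the middle share and the next one and not at the distal end.

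Aldh1a2 (ENSMUSG00000013584, chr9:71215789-71296243 on the plus strand), the main enzyme of embryonic retinoic acid synthesis, was sparse in the bud mesenchyme. Its Wt level was 0.302, 0.743 and 0.584 CPM in the proximal, 0.410, 2.74 and 6.06 CPM in the middle and 0.166, 0.475 and 2.82 CPM in the distal gate. The proximal and distal gates overlapped, and the test between them gave a log2 fold change of 0.15 ± 0.44 (adjusted p = 0.805). Its UMIs came from few cells, 30, 151 and 35 in the Wt libraries with 42, 294 and 116 UMIs in all. Of the Wt UMIs, 76.77% lay in the core gate described next and 62.61% in the middle gate. Markers of body wall and mesothelium, tissues at the flank that express Aldh1a2, summed to 2.67 to 4.2 CPM in the mesenchyme of the 9 libraries. Cells with these markers were not gated out, and their part in these values was not tested. Aldh1a3 (ENSMUSG00000015134, chr7:66390890-66427517 on the minus strand), a related synthesis enzyme, had 10 to 89 UMIs per library and 0.164 to 0.626 CPM over all mesenchyme. Cyp26a1 (ENSMUSG00000024987, chr19:37697798-37701536 on the plus strand), a clearing enzyme related to Cyp26b1, had 0 to 17 UMIs per library and at most 0.0803 CPM, and did not pass the filter within the gates.

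The same cells were also split by anterior (Alx4, Pax1, Boc, Sox6) against posterior (Hand2, Osr1, Shh, Prdm1) genes. In Wt, 6 of 9 members tested were called between the outer gates, beside 41.0% of all genes, and all 6 were higher anteriorly. Dhrs3 differed by a log2 fold change of 0.94 ± 0.09 (adjusted p = 5.09e-10) and Rarb by 0.71 ± 0.09 (adjusted p = 2.12e-07). The carriers Crabp1 (0.57 ± 0.03) and Crabp2 (0.36 ± 0.03) and the receptors Rarg (0.36 ± 0.03) and Rara (0.25 ± 0.04) were called with smaller differences. Cyp26b1 was at 103, 64.2 and 51.9 CPM anteriorly and 81.9, 54.2 and 50.1 CPM posteriorly in Wt, and its log2 fold change of 0.18 ± 0.08 was just short of the threshold (adjusted p = 0.0611). It passed in 6 of the 9 fits without a library, those without Wt replicate 3 (0.22), E1C8Δ/Δ replicate 2 or 3 (both 0.21) or E1C5Δ/Δ replicate 1, 2 or 3 (0.21, 0.21 and 0.19). The median over the 9 members was 0.3557, anterior over posterior, and −0.0296 over all genes. With library totals in place of TMM factors, the genes called higher anteriorly went from 2354 of all genes to 3580 and those called higher posteriorly from 3773 to 2252.

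A further split set core genes of the forming skeleton (Sox9, Col2a1, Sox5, Tbx15, Tbx18) against genes of the peripheral mesenchyme (Msx1, Asb4, Lhx2, Lhx9, Bambi). In Wt, 7 of 9 members tested were called, beside 56.5% of all genes. Cyp26b1 was lower in the core, at 63.2, 50.9 and 55.3 CPM against 157, 103 and 94.7 CPM in the periphery, and the ranges did not overlap (log2 fold change −1.14 ± 0.08, adjusted p = 2.45e-12). Crabp1 was lower there too, at 188 to 211 CPM against 488 to 552 CPM (−1.46 ± 0.04). Dhrs3 (0.80 ± 0.08), Rara (0.53 ± 0.05), Rarg (0.32 ± 0.04) and Crabp2 (0.28 ± 0.03) were higher in the core. Aldh1a2 was at 0.575, 3.16 and 8.13 CPM in the core and at 0.0546, 0.139 and 0.665 CPM in the periphery, a log2 fold change of 3.97 ± 0.34 (adjusted p = 6.98e-11) that rests on the few cells given above. Rarb was at 8.12, 12.1 and 5.57 CPM in the core and 7.87, 9.57 and 7.58 CPM in the periphery, and these values overlapped (0.10 ± 0.12, adjusted p = 0.532).

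Combining the first and the second split gave 9 position gates in Wt. The mean Cyp26b1 level was lowest in the proximal posterior gate at 15.8 CPM and highest in the distal central gate at 198 CPM. The Rarb mean was highest in the proximal anterior gate at 26.4 CPM and lowest in the distal central gate at 0.76 CPM. At the middle level Rarb was at 10.3 CPM posteriorly, but at 3.24 CPM centrally and 3.72 CPM anteriorly. Dhrs3 was highest in the middle anterior gate, at 15.8 CPM, and lowest in the proximal posterior gate, at 3.66 CPM. Crabp1 ranged from 268 CPM in the proximal posterior to 476 CPM in the distal anterior gate, and Crabp2 from 337 CPM in the distal posterior to 804 CPM in the proximal anterior gate. Across these 9 means, which share libraries and depth, Pearson's r of Rarb with Cyp26b1 was −0.766, that of Rarb with Rara was 0.799 and that of Crabp2 with Cyp26b1 was −0.787.

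**Figure D2:**
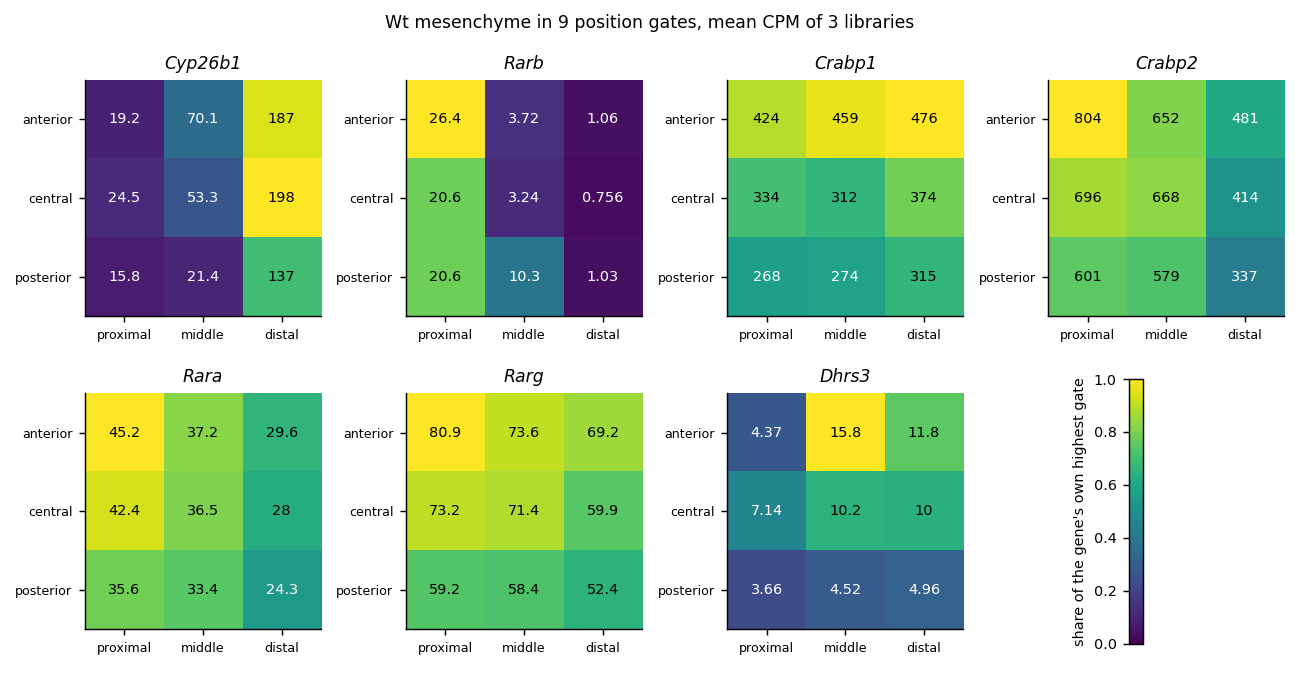
Mean level in the 3 Wt libraries (CPM) of 7 members in 9 position gates, proximal to distal on the x axis and anterior to posterior on the y axis, printed in each cell and coloured relative to the gene's highest gate. Cyp26b1 is highest in the distal central gate (198 CPM) and Rarb in the proximal anterior gate (26.4 CPM).

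For each member with at least 10 CPM in Wt, the 3 genes most like it over these 9 means were listed among 7972 genes, leaving out the genes of the position gates. For Cyp26b1 they were Dusp6, an FGF-induced phosphatase gene (r = 0.991), Pmaip1 (0.991) and Tiparp (0.989). Rara was nearest to Ascc1, Itgb5 (0.982) and Crabp2 (0.980), and Crabp2 to Itgb5 (0.985), Rara (0.980) and Ascc1 (0.978). Crabp1 was nearest to Pi4k2b (0.984), to Prrx2 (0.973), a gene of the mesenchyme gate, and to Ckap4. Rarg was nearest to Cbx8 (0.968), Rpl5 (0.965) and Flot2 (0.960). With 9 points that share libraries these values are descriptions.

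The effect of the enhancer deletions was asked first over all mesenchyme, with the 6 mutant libraries compared to the 3 Wt libraries. Of the 10 members, 3 were called, Cyp26b1 lower and Rarb and Crabp1 higher in the mutants, beside 1.9% of all genes tested. Each mutant taken against Wt had 2 members called, beside 9.09% of all genes in E1C8Δ/Δ and 1.31% in E1C5Δ/Δ. The values of these 3 genes did not overlap between mutants and Wt, which was so for 5.41% of all genes. The median log2 fold change was −0.0011 over the 10 members and −0.0118 over all genes. A lower share of cells of a type and less RNA per cell cannot be told apart in such sums.

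**Figure D3:**
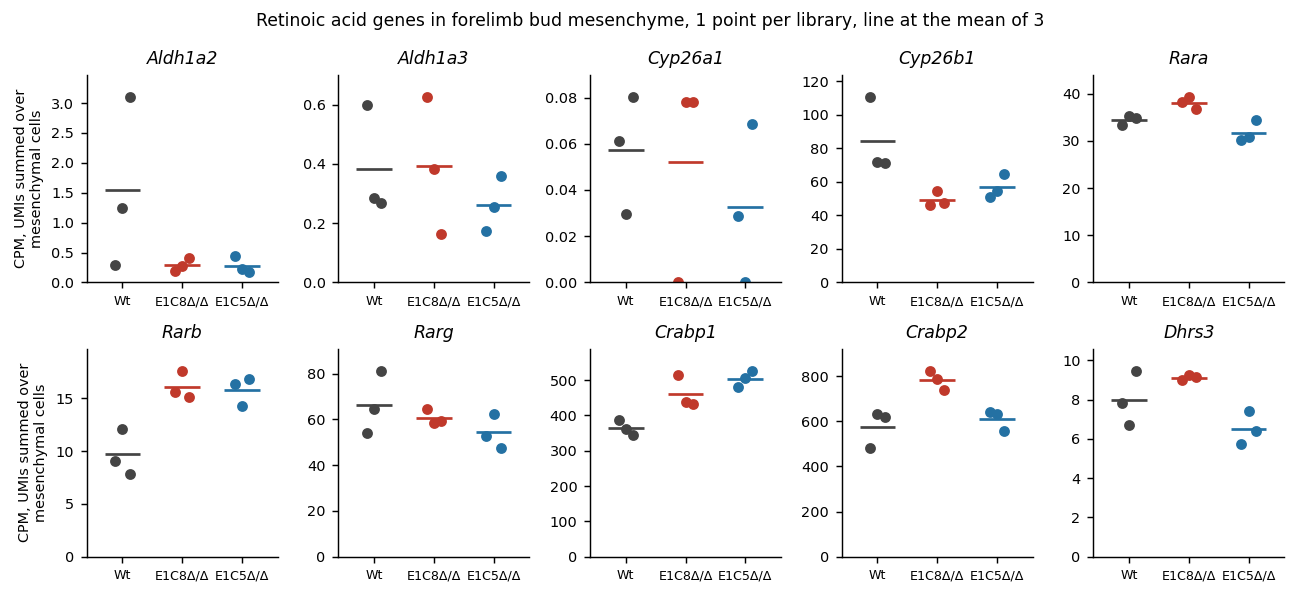
Level of each member over all mesenchyme (CPM, y axis) in each library, grouped by genotype (x axis), with a point for each library and a line at the mean of 3. For Cyp26b1 all mutant points lie at or below 64.7 CPM and all Wt points at or above 71.0 CPM, and for Rarb and Crabp1 all mutant points lie above the Wt points.

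Cyp26b1 was at 111, 71.9 and 71.0 CPM in Wt, at 46.4, 54.4 and 47.4 CPM in E1C8Δ/Δ and at 50.7, 54.7 and 64.7 CPM in E1C5Δ/Δ. Every mutant library lay below every Wt library, and Wt replicate 1 lay well above the other Wt libraries. The log2 fold change of the mutants was −0.66 ± 0.13 (adjusted p = 0.0305), and −0.43 without Wt replicate 1 (adjusted p = 0.0636). The call was also lost without Wt replicate 2 (adjusted p = 0.0507), E1C8Δ/Δ replicate 1 (0.0719) or 3 (0.0613), or E1C5Δ/Δ replicate 1 (0.0699) or 2 (0.0546). The log2 fold changes were then −0.74 to −0.63. Taken by genotype, E1C8Δ/Δ differed from Wt by −0.80 ± 0.15 (adjusted p = 0.0124, and −0.74 with adjusted p = 0.0596 without E1C8Δ/Δ replicate 1). E1C5Δ/Δ differed by −0.52 ± 0.15 (adjusted p = 0.145), and the genotypes share the same Wt libraries.

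Rarb was at 9.08, 12.1 and 7.87 CPM in Wt, 15.6, 17.6 and 15.2 CPM in E1C8Δ/Δ and 16.4, 14.3 and 16.8 CPM in E1C5Δ/Δ, and every mutant library lay above every Wt library. The log2 fold change was 0.71 ± 0.14 (adjusted p = 0.0328). Without Wt replicate 1 or 3, any 1 of the E1C8Δ/Δ replicates, or E1C5Δ/Δ replicate 1, it was 0.58 to 0.74 with adjusted p-values of 0.0612 to 0.0965. The change was 0.69 ± 0.16 in E1C8Δ/Δ (adjusted p = 0.0255) and 0.74 ± 0.16 in E1C5Δ/Δ (adjusted p = 0.0473). In E1C8Δ/Δ the call was lost without Wt replicate 1 (0.62) or E1C8Δ/Δ replicate 1 (0.73), 2 (0.64) or 3 (0.70), and in E1C5Δ/Δ without any 1 library except Wt replicate 2, with 0.61 to 0.80.

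Crabp1 was at 387, 360.1 and 344 CPM in Wt, 513, 438 and 433 CPM in E1C8Δ/Δ and 481, 505 and 525 CPM in E1C5Δ/Δ, again with no overlap between Wt and the mutants. The log2 fold change was 0.42 ± 0.08 (adjusted p = 0.0292). It was 0.36 to 0.45, with adjusted p-values of 0.0543 to 0.0807, without any 1 of the Wt replicates, E1C8Δ/Δ replicate 1 or 3, or E1C5Δ/Δ replicate 1 or 2. E1C5Δ/Δ was called by itself (0.52 ± 0.09, adjusted p = 0.0202), although not without Wt replicate 3 (0.47) or E1C5Δ/Δ replicate 1 (0.53) or 2 (0.51). E1C8Δ/Δ was short of the threshold (0.31, adjusted p = 0.0539).

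Among the members not called, Aldh1a2 had the greatest difference, with 0.286, 1.25 and 3.10 CPM in Wt, 0.188, 0.282 and 0.407 CPM in E1C8Δ/Δ and 0.440, 0.225 and 0.169 CPM in E1C5Δ/Δ. Wt replicate 1 lay within the mutant range and the other Wt libraries above it. Its log2 fold change was −2.24 ± 0.57 (adjusted p = 0.0704), and it was called without Wt replicate 1 (−2.78, adjusted p = 0.0147) and by DESeq2 (−2.37, adjusted p = 0.0293). Cells with at least 5 Aldh1a2 UMIs numbered 2, 13 and 7 in Wt, 3 in E1C5Δ/Δ replicate 1 and 0 in the other mutant libraries.

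Crabp2 was at 482, 631 and 619 CPM in Wt, 823, 789 and 737 CPM in E1C8Δ/Δ and 639, 633 and 557 CPM in E1C5Δ/Δ. E1C8Δ/Δ lay above Wt, E1C5Δ/Δ overlapped it, and the log2 fold change of the mutants was 0.27 ± 0.11 (adjusted p = 0.233). For E1C8Δ/Δ it was 0.41 (adjusted p = 0.0779). The receptors Rara (0.02 ± 0.07, adjusted p = 0.895) and Rarg (−0.19 ± 0.13, adjusted p = 0.454) overlapped between the genotypes, with Rara at 30.2 to 39.4 CPM in the 9 libraries and Rarg at 47.7 to 81.1 CPM. Dhrs3 was at 5.75 to 9.45 CPM in the 9 libraries, with a log2 fold change of −0.02 (adjusted p = 0.94). E1C8Δ/Δ, at 9.01, 9.23 and 9.12 CPM, lay above E1C5Δ/Δ, at 5.75, 7.44 and 6.39 CPM. That difference, a comparison added after the data were seen, was 0.41 (adjusted p = 0.0763), and 0 of the 10 members were called by edgeR between both mutants, beside 9.59% of all genes. An unadjusted p under 0.05 was reached by 3 of them, beside 26.9% of all genes. DESeq2 called 1 member, Dhrs3 (0.41, adjusted p = 0.0408), beside 14.2% of all genes. Aldh1a3 had a log2 fold change of −0.42 ± 0.37 (adjusted p = 0.59), and Cyp26a1 was too sparse for its value of 0.18 (adjusted p = 0.908) to be read.

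The genotype effect was then taken within each gate. In the distal gate, Crabp1, Cyp26b1 and Rarb were called, 3 of 9 members tested beside 2.62% of all genes, and these 3 did not overlap between mutants and Wt, as for 5.53% of all genes. Distal Cyp26b1 was at 223, 150.4 and 148 CPM in Wt, 105, 111 and 96.6 CPM in E1C8Δ/Δ and 115, 116 and 131 CPM in E1C5Δ/Δ, a log2 fold change of −0.61 ± 0.11 (adjusted p = 0.0186). Distal Crabp1 was at 338 to 422 CPM in Wt and 526 to 648 CPM in the mutants (0.60 ± 0.10, adjusted p = 0.00863). Both calls held without each library in turn. Distal Rarb was low in every library. After thinning, the share of distal cells holding it in Wt and E1C5Δ/Δ was near that of erythroid cells, as counted below. Its level was 0.699, 1.08 and 1.08 CPM in Wt, 2.05, 3.21 and 2.54 CPM in E1C8Δ/Δ and 1.53, 1.33 and 1.82 CPM in E1C5Δ/Δ. Its log2 fold change of 1.15 ± 0.23 (adjusted p = 0.0244) lost the call without Wt replicate 1 (0.92), 2 (1.37) or 3 (1.19) or E1C8Δ/Δ replicate 2 (1.07) or 3 (1.17), and under 7 other settings with values of 0.72 to 1.46. Taken by genotype, E1C8Δ/Δ had 4 of 9 members called in the distal gate. Cyp26b1 was lower (−0.75, adjusted p = 0.00718), beside 6.61% of all genes called lower, and 3 members were higher, beside 4.22% of all genes called higher, namely Rarb (1.52, adjusted p = 0.00563), Crabp1 (0.52, adjusted p = 0.0126) and Crabp2 (0.59, adjusted p = 0.0251). The Crabp2 call was lost without Wt replicate 1 (0.45) or E1C8Δ/Δ replicate 1 (0.64), 2 (0.58) or 3 (0.57). E1C5Δ/Δ had only Crabp1 called (0.68, adjusted p = 0.0125), beside 1.23% of all genes, while distal Cyp26b1 (−0.48, adjusted p = 0.128) and Rarb (0.77, adjusted p = 0.21) were short of the threshold in it. DESeq2 called this Cyp26b1 difference (−0.48, adjusted p = 0.0304). Between the mutants the distal difference was −0.26 for Cyp26b1 (adjusted p = 0.235) and 0.74 for Rarb (adjusted p = 0.0698).

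In the middle gate, 2 of 9 members were called beside 1.59% of all genes, and both did not overlap (5.48% of all genes). Middle Rarb was at 4.6, 7.98 and 5.28 CPM in Wt, 14.0, 17.7 and 14.9 CPM in E1C8Δ/Δ and 15.6, 10.4 and 12.6 CPM in E1C5Δ/Δ, a log2 fold change of 1.24 ± 0.20 (adjusted p = 0.015). It was 1.16 without Wt replicate 3 (adjusted p = 0.0586) and 1.09 with embryo sex as a covariate (adjusted p = 0.22). Middle Crabp1 rose by 0.46 ± 0.10 (adjusted p = 0.0481), a call lost (0.39 to 0.50) in 8 of the 9 fits that left out a library, all but the one without E1C5Δ/Δ replicate 3. Middle Cyp26b1 was at 67.0, 40.7 and 34.8 CPM in Wt, 21.1, 32.4 and 24.3 CPM in E1C8Δ/Δ and 15.7, 29.2 and 38.7 CPM in E1C5Δ/Δ, and overlapped (−0.80 ± 0.24, adjusted p = 0.108). By genotype, middle Rarb was called in E1C8Δ/Δ (1.34, adjusted p = 0.00806, 1 of 9 members beside 7.48% of all genes) and in E1C5Δ/Δ (1.13, adjusted p = 0.0384), where Crabp1 was called as well (0.55, adjusted p = 0.048, 2 of 9 members beside 0.961% of all genes). The E1C5Δ/Δ calls were lost in 7 of 9 fits without a library for Rarb (0.93 to 1.2) and in 8 of 9 for Crabp1 (0.50 to 0.59).

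In the proximal gate 0 of 9 members were called by edgeR with both mutants together, beside 0.403% of all genes. There 3 members had an unadjusted p under 0.05, beside 14.8% of all genes, and DESeq2 called 2, Cyp26b1 and Rarb, beside 2.06% of all genes. Rarb did not overlap, which held for 4.02% of all genes. Proximal Rarb was at 18.2 to 26.8 CPM in Wt and 30.5 to 39.0 CPM in the mutants (0.53 ± 0.11, adjusted p = 0.0725, and 0.69 with adjusted p = 0.0391 without Wt replicate 2). Proximal Cyp26b1 was at 17.03 to 22 CPM in Wt and 6.87 to 17.3 CPM in the mutants (−0.73 ± 0.16, adjusted p = 0.0799, and −0.82 with adjusted p = 0.0444 without E1C5Δ/Δ replicate 3). In E1C5Δ/Δ alone both were called, 2 of 9 members beside 0.772% of all genes, Cyp26b1 lower (−0.94 ± 0.19, adjusted p = 0.0466) and Rarb higher (0.65 ± 0.13, adjusted p = 0.0392). Each call was lost in 8 of 9 fits without a library, all but the one without E1C5Δ/Δ replicate 3 for Cyp26b1 (−1.05 to −0.75 in the others) and without Wt replicate 2 for Rarb (0.51 to 0.69), and under 6 and 7 of the 12 other settings. In E1C8Δ/Δ edgeR called 0 of 9 members in this gate beside 3.96% of all genes, with 5 at an unadjusted p under 0.05 beside 20.2% of all genes, and DESeq2 called 0 beside 6.66%. Its values were −0.52 for Cyp26b1 (adjusted p = 0.151) and 0.41 for Rarb (adjusted p = 0.103). Between the mutants the proximal difference was 0.42 for Cyp26b1 (adjusted p = 0.22) and −0.25 for Rarb (adjusted p = 0.27).

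**Figure D4:**
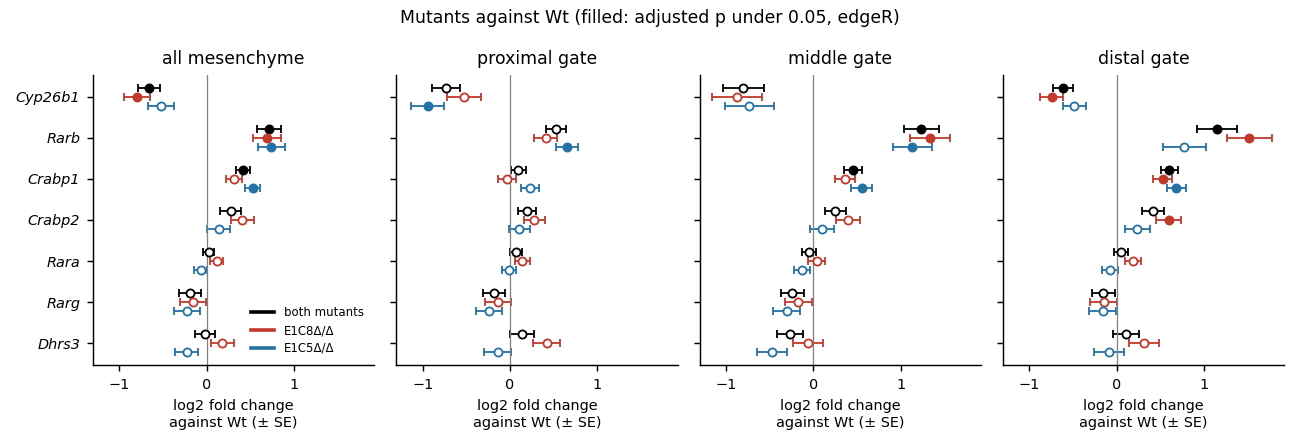
Log2 fold change against Wt (x axis) of 7 members (y axis) over all mesenchyme and in the proximal, middle and distal gates, for both mutants together and each alone, with bars for 1 standard error and filled points for an adjusted p under 0.05. For both mutants together Rarb lies above 0 in all 4 panels (0.53 to 1.24) and Cyp26b1 below 0 (−0.80 to −0.61).

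The gates themselves differ between genotypes, because the genes that define them do. In the middle gate, Irx3 was at 6.3, 12.8 and 11.8 CPM in Wt, but at 21.8 to 35.5 CPM in E1C8Δ/Δ and 18.0 to 20.6 CPM in E1C5Δ/Δ. With 1 cut for all libraries in place of equal shares, the distal gate held 29.2 to 39.3% of the Wt mesenchyme, 19.7 to 24.3% in E1C8Δ/Δ and 22.7 to 30.4% in E1C5Δ/Δ. The proximal gate then held 29.4 to 36.0% in Wt, 43.8 to 48.0% in E1C8Δ/Δ and 39.7 to 43.4% in E1C5Δ/Δ. Under this cut the middle Rarb difference was 0.57 (adjusted p = 0.034) and the distal one 0.72 (adjusted p = 0.162). The distal Cyp26b1 difference was −0.41 (adjusted p = 0.037), the middle one −0.16 (adjusted p = 0.62), and the distal Crabp1 difference 0.61 (adjusted p = 0.0056). How far the share of proximal cells sets the changes over all mesenchyme was not tested beyond this.

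Whether the axis profile itself differed was tested by the interaction of gate and genotype. Between distal and proximal gates, 2 of 9 members were called, beside 2.71% of all genes (139 of them higher and 267 lower in the mutants, or 184 and 196 with RLE factors). The distal excess of Crabp1 was larger in the mutants by 0.49 ± 0.09 on the log2 scale (adjusted p = 0.00214), since its mutant mean over the 5 shares went from 346 CPM proximally to 590 CPM distally while the Wt mean went from 350 to 388 CPM. Crabp2 fell less toward the distal end in the mutants (0.22 ± 0.04, adjusted p = 0.0063), a call lost without Wt replicate 1 (0.19) or 3 (0.20). With 1 cut for all libraries the Crabp2 value was 0.12 (adjusted p = 0.183). The Rarb slope in the mutants, with a difference of 0.74 ± 0.21, was just short of the threshold (adjusted p = 0.0522). In E1C8Δ/Δ alone it was flatter by 1.23 ± 0.23 (adjusted p = 0.00281). In E1C5Δ/Δ the difference was 0.25 and did not pass (adjusted p = 0.771), and whether the mutants differ from each other here was not tested. The proximal over distal ratio of Rarb was 33.5, 24.7 and 16.8 in Wt, 15.3, 10.1 and 12.03 in E1C8Δ/Δ and 22.4, 24.4 and 21.4 in E1C5Δ/Δ. Its distal levels rest on few cells, as counted below. For Cyp26b1 the slope did not pass the test (0.13, adjusted p = 0.812). By genotype, 3 of 9 members were called in E1C8Δ/Δ beside 4.59% of all genes, namely Rarb (1.07 with adjusted p = 0.0536 with no UMI of another lineage's markers allowed), Crabp1 (0.53, adjusted p = 0.00344) and Crabp2 (0.31, adjusted p = 0.00106, and 0.17 with adjusted p = 0.068 with 1 cut). In E1C5Δ/Δ Crabp1 was called (0.46, adjusted p = 0.0112), 1 of 9 members beside 2.22% of all genes, although not without Wt replicate 3 (0.34) or E1C5Δ/Δ replicate 3 (0.36).

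Across the anterior-posterior axis, an interaction added after the data were seen called 3 of 9 members, beside 1.29% of all genes. Cyp26b1 fell more posteriorly than anteriorly. Its posterior level was 81.9, 54.2 and 50.1 CPM in Wt, 30.2, 39.2 and 30.0 CPM in E1C8Δ/Δ and 24.0, 32.1 and 29.0 CPM in E1C5Δ/Δ, with every mutant library below every Wt library. Its anterior level was 103, 64.2 and 51.9 CPM in Wt, 36.7, 49.4 and 49.2 CPM in E1C8Δ/Δ and 59.0, 56.5 and 79.1 CPM in E1C5Δ/Δ, and these ranges overlapped. The interaction was 0.65 ± 0.10 (adjusted p = 0.000292), 1.01 in E1C5Δ/Δ (adjusted p = 1.4e-06) and 0.28 in E1C8Δ/Δ (adjusted p = 0.272). For the anterior and posterior gates the share of all genes without overlap was not counted. Crabp1 was at 252 to 307 CPM posteriorly in Wt and 343 to 505 CPM in the mutants, and at 428 to 472 CPM and 491 to 602 CPM anteriorly. The posterior difference was the larger one (interaction −0.26 ± 0.04, adjusted p = 9.47e-05). Taken by genotype, the Crabp1 interaction was called in E1C5Δ/Δ and not in E1C8Δ/Δ, as given next. Aldh1a2 had an interaction of −2.47 ± 0.43 (adjusted p = 0.00154). Its anterior level was 0.268, 1.11 and 4.70 CPM in Wt and 0 to 0.172 CPM in the mutants, while the posterior level was 0.385, 1.29 and 2.62 CPM in Wt and 0.333 to 0.949 CPM in the mutants, and 66.03% of the mutant UMIs lay in the posterior gate. This Aldh1a2 call was lost when no UMI of another lineage's markers was allowed (−2.80, adjusted p = 0.0544) and after thinning (−2.29, adjusted p = 0.0943).

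Each mutant had 3 of 9 members called in this interaction, beside 1.31% of all genes in E1C5Δ/Δ and 1.35% in E1C8Δ/Δ. In E1C5Δ/Δ they were Cyp26b1, Crabp1 (−0.43, adjusted p = 2.64e-07) and Aldh1a2 (−2.51, adjusted p = 0.00789, and −1.93 with adjusted p = 0.225 without E1C5Δ/Δ replicate 1). The Aldh1a2 call was also lost with no doublet removal (−1.65), with no UMI of another lineage's markers allowed (−2.78) and after thinning (−2.12). In E1C8Δ/Δ they were Rarb, Dhrs3 and Aldh1a2. Posterior Rarb was at 6.94, 10.4 and 8.36 CPM in Wt and 15.0, 18.0 and 17.8 CPM in E1C8Δ/Δ, with no overlap, and anterior Rarb at 14.7, 16.7 and 10.0 CPM in Wt and 19.7, 20.8 and 17.5 CPM in E1C8Δ/Δ. The anterior excess of Rarb was smaller by 0.62 ± 0.13 on the log2 scale than in Wt (interaction −0.62, adjusted p = 0.00959), a call lost without Wt replicate 1 (−0.46) or E1C8Δ/Δ replicate 3 (−0.53). With both mutants together the Rarb interaction was not called (−0.36, adjusted p = 0.0986), although it was without Wt replicate 3 (−0.43), after thinning (−0.59) and with no UMI of another lineage's markers allowed (−0.57). Dhrs3 was at 4.37, 4.29 and 5.90 CPM posteriorly in Wt and 8.14, 8.03 and 6.13 CPM in E1C8Δ/Δ, and at 10.3, 7.84 and 11.03 CPM and 8.19, 9.59 and 10.3 CPM anteriorly, so that the genotypes overlapped anteriorly but not posteriorly. Its interaction of −0.52 (adjusted p = 0.04) was lost without Wt replicate 1 (−0.39) or 3 (−0.54) or E1C8Δ/Δ replicate 1 (−0.50) or 2 (−0.37), with no UMI of another lineage's markers allowed (−0.45), after thinning (−0.51) and with 1 cut (−0.48). How many of all genes did not overlap between E1C8Δ/Δ and Wt in these gates was not counted. With both mutants together Dhrs3 was just short of the threshold (−0.42, adjusted p = 0.0565), and it passed without Wt replicate 2 (−0.57), E1C8Δ/Δ replicate 3 (−0.55) or E1C5Δ/Δ replicate 2 (−0.45). The Aldh1a2 interaction in E1C8Δ/Δ (−2.42, adjusted p = 0.0277) was lost without any 1 of the E1C8Δ/Δ replicates (−3.16 to −1.76) or without Wt replicate 1 (−2.53) or 3 (−2.06), and also with no UMI of another lineage's markers allowed (−2.82) and after thinning (−2.46). Whether the mutants differ from each other in these interactions was not tested.

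Between core and periphery the interaction, added likewise, called 2 of 9 members beside 4.04% of all genes. Core Cyp26b1 was at 63.2, 50.9 and 55.3 CPM in Wt, 21.1, 34.6 and 29.0 CPM in E1C8Δ/Δ and 19.3, 24.9 and 23.7 CPM in E1C5Δ/Δ, while the peripheral level was 94.7 to 157 CPM in Wt and 75.0 to 117 CPM in the mutants. With both mutants together the core fell further (−0.72 ± 0.11, adjusted p = 0.000185). The interaction of Cyp26b1 was −1.11 ± 0.12 in E1C5Δ/Δ (adjusted p = 1.96e-06) and −0.33 ± 0.13 in E1C8Δ/Δ, where it was not called (adjusted p = 0.183, and −0.46 with adjusted p = 0.0478 without Wt replicate 1). Core Rarb was at 8.12, 12.1 and 5.57 CPM in Wt, 23.7, 20.1 and 16.8 CPM in E1C8Δ/Δ and 20.4, 17.8 and 24.2 CPM in E1C5Δ/Δ, with no overlap. For the core gate the share of all genes without overlap was not counted. The peripheral Rarb levels, 7.58 to 9.57 CPM in Wt and 7.98 to 11.7 CPM in the mutants, overlapped, and the interaction was 0.90 ± 0.15 (adjusted p = 0.000476). It was 1.05 in E1C5Δ/Δ (adjusted p = 0.000113) and 0.74 in E1C8Δ/Δ (adjusted p = 0.0184), where the call was lost without Wt replicate 1 (0.69), E1C8Δ/Δ replicate 1 (0.65) or 3 (0.71), with no UMI of another lineage's markers allowed (0.55), after thinning (0.50) or with 1 cut for all libraries (0.39, adjusted p = 0.179). Dhrs3 was also called in E1C5Δ/Δ (−0.44, adjusted p = 0.0204), but not without Wt replicate 2 (−0.41) or 3 (−0.41) or E1C5Δ/Δ replicate 1 (−0.32). Its call was also lost in 1 of 8 settings other than leaving out a library (adjusted p = 0.468), with values of −0.79 to −0.29 over them. The calls by genotype were 1 of 9 members in E1C8Δ/Δ, beside 2.76% of all genes, and 3 of 9 in E1C5Δ/Δ, beside 4.92%. The difference between the mutants was not tested. The score that a cell had to pass to enter the core gate was 0.45 to 0.61 in the Wt libraries and 0.0145 to 0.257 in the mutant libraries, so these equal shares do not hold the same range of cells in both. With 1 cut for all libraries the interaction was −0.56 for Cyp26b1 (adjusted p = 0.00232) and 0.61 for Rarb (adjusted p = 0.0055). With both mutants together, the interactions of Cyp26b1 along both axes, of Crabp1 between anterior and posterior and of Rarb between core and periphery held without each library in turn. They were not refitted with embryo sex as a covariate.

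Counted per cell after thinning to 10000 UMIs, Cyp26b1 was seen in 62.3 to 75.1% of distal Wt cells and 50.8 to 56.9% of distal mutant cells (85.4 to 90.2% and 68.4 to 79.9% unthinned). Erythroid cells, which should lack it, held a UMI in 2.61 to 10.2% of cells after thinning, far below these shares. Their median depths were 18496 to 39357 UMIs. The part of free RNA in the Cyp26b1 shares was not tested. Rarb was seen in 3.50 to 6.45% of middle Wt cells and 9.41 to 13.6% of middle mutant cells (10.69 to 17.5% and 20.8 to 30.8% unthinned), with 0 to 2.02% in erythroid cells. Crabp1 was seen in 88.2 to 94.1% of distal Wt cells and 97.1 to 99.5% of distal mutant cells (97.9 to 99.5% and 98.2 to 100.0% unthinned), with 5.83 to 23.7% in erythroid cells. Mutants and Wt did not overlap in these 3 thinned shares, while the unthinned shares of Crabp1 did. These pairs of gene and gate were already called on the sums, and the share of all genes without overlap by this measure was not counted. In the same thinned cells over all mesenchyme, 7.25 to 14.8% of the cells with a Rarb UMI also held a Cyp26b1 UMI, against 25.9 to 44.9% of the cells without a Rarb UMI. Within the proximal gate the shares were closer, 5.56 to 13.3% and 6.94 to 20.4%. Within the middle gate they were 0 to 19.2% and 13.4 to 36.9%, and the cells with Rarb had the lower share in every library. The distal gate held only 5 to 48 cells with Rarb per library. In Wt these were 8 of 1387, 13 of 1964 and 5 of 228 thinned cells. They were 5 of 143, 48 of 2092 and 45 of 1730 in E1C8Δ/Δ, and 16 of 986, 8 of 569 and 30 of 2097 in E1C5Δ/Δ. In Wt and E1C5Δ/Δ this was near the 0 to 2.02% of erythroid cells, and the part of free RNA in distal Rarb was not tested. In the distal gate the shares with Cyp26b1 were 29.2 to 87.5% and 51.0 to 75.1%. They were higher in the cells with Rarb in Wt replicate 1, E1C8Δ/Δ replicate 1 and E1C5Δ/Δ replicate 2, and lower in the other 6 libraries.

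Outside the mesenchyme the members differed in level between cell types. Each lineage was compared with the mesenchyme within libraries, and among the 8 members that passed the filter 34 of 40 lineage comparisons were called. The shares of all genes called were 37.5% in muscle progenitors, 49.5% in ectoderm, 71.3% in endothelium, 79.8% in erythroid and 67.6% in myeloid cells. Cyp26a1 was a gene of the ectoderm, at 20.5 to 31.3 CPM there and at most 1.26 CPM in any other cell type. It passed the filter on low counts only through its ectoderm sums, so its call there, among the 34, is no independent support. These sums held 30 to 56 Cyp26a1 UMIs per library, and 5 cells held 91.11% of those in E1C5Δ/Δ replicate 1. Cyp26b1 was at 13.7 to 33.7 CPM in ectoderm, 3.25 to 8.33 CPM in muscle progenitors and 3.11 to 8.76 CPM in erythroid cells, all below its level in the mesenchyme. Dhrs3 was highest in myeloid cells, at 45.9 to 56.7 CPM (2.97 ± 0.19), and low in muscle progenitors, at 0 to 2.38 CPM (−2.34 ± 0.23). Only Wt replicates 1 and 2, E1C8Δ/Δ replicate 2 and E1C5Δ/Δ replicate 1 held at least 20 myeloid cells, 28 to 40 each. Ectoderm levels are from Wt replicates 1 and 2, E1C8Δ/Δ replicates 2 and 3 and E1C5Δ/Δ replicates 1 and 3, with 43 to 99 cells each.

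Crabp2 was at 241 to 414 CPM in muscle progenitors and 68.8 to 124 CPM in ectoderm, beside 8.94 to 37.4 CPM in erythroid cells and 11.5 to 52.1 CPM in endothelium. Crabp1 was at 28.9 to 79.8 CPM in ectoderm, beside 7.62 to 29.9 CPM in erythroid cells, and at most 32.1 CPM in the other lineages outside the mesenchyme. How much of the levels outside the mesenchyme is RNA carried over from it was not tested. Rara was at 23.9 to 42.7 CPM in muscle progenitors, which was not called against the mesenchyme (0.05, adjusted p = 0.703), and at 0 to 2.57 CPM in erythroid cells. Rarg was at 7.21 to 11.1 CPM in muscle progenitors and 1.29 to 4.92 CPM in erythroid cells, and Rarb at 1.35 to 3.2 CPM and, in ectoderm, 1.64 to 6.95 CPM. Aldh1a2 and Aldh1a3 did not pass the filter. In E1C5Δ/Δ replicate 1 the ectoderm held 13.9 CPM of Aldh1a2, which came to 20 UMIs in 2 of 51 cells.

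**Figure D5:**
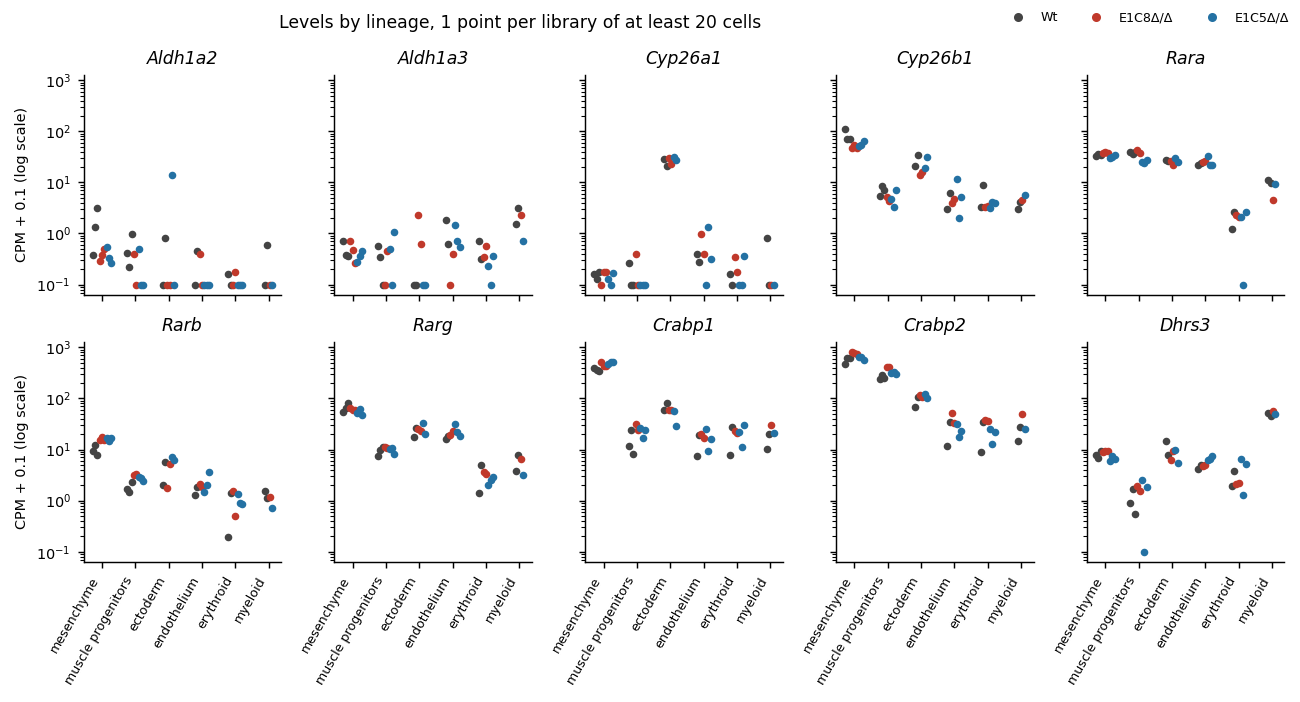
Level of each member (CPM + 0.1, log scale) in the gated cell types of the limb bud, with a point for each library that held at least 20 cells of that type. Cyp26a1 stands at 20.5 to 31.3 CPM in ectoderm and at most 1.26 CPM in any other lineage, and Dhrs3 is highest in myeloid cells (45.9 to 56.7 CPM).

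A list of 30 other retinoid genes was counted beside the members, of which 26 passed the filter. Meis1 and Meis2 on it are genes of the proximal gate and Tbx5 is a mesenchyme marker, so their gradient is no finding. Between distal and proximal Wt gates 3 were higher distally and 15 proximally, Meis1 and Meis2 among the latter, beside 57.0% of all genes called in either direction, with a median log2 fold change of −0.446. The lowest were Meis2 (−4.82), Hoxb1 (−4.80), a known retinoic acid target, and Meis1 (−4.09). The highest were Rbp4 (0.69), which encodes the plasma carrier of retinol, Rxrg (0.28, adjusted p = 0.46) and Fabp5 (0.26).

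Every genotype call of the members rests on 3 Wt embryos that were all male. With embryo sex as a covariate, the values over all mesenchyme were −0.67 for Cyp26b1 (adjusted p = 0.277), 0.64 for Rarb (adjusted p = 0.294) and 0.42 for Crabp1 (adjusted p = 0.254), and that of Grem1 was −1.11 (adjusted p = 0.112). In the distal gate they were −0.65 for Cyp26b1 (adjusted p = 0.137), 0.61 for Crabp1 (adjusted p = 0.09) and 1.03 for Rarb (adjusted p = 0.213). In the middle gate the calls of Rarb (1.09, adjusted p = 0.22) and Crabp1 (0.39, adjusted p = 0.417) were lost as well. Of the calls by genotype within these gates, those of distal Cyp26b1 (−0.78, adjusted p = 0.0442) and distal Rarb (1.41, adjusted p = 0.0399) in E1C8Δ/Δ held with sex as a covariate and the others were lost. That distal Rarb call was lost in 1 of 12 settings other than leaving out a library (adjusted p = 0.0713), and its values over them were 0.94 to 1.78. When no UMI of another lineage's markers was allowed in the mesenchyme, the values were −0.59 for Cyp26b1 (adjusted p = 0.0632) and 0.57 for Rarb (adjusted p = 0.0906). The male mutant libraries were E1C8Δ/Δ replicate 3 and E1C5Δ/Δ replicate 2. They were at 47.4 and 54.7 CPM for Cyp26b1, 15.2 and 14.3 CPM for Rarb, and 433 and 505 CPM for Crabp1. These values, from 1 male library of each mutant, lay outside the range of the 3 male Wt libraries. Those of the female mutant libraries lay outside it as well. The part of sex in these differences was not tested beyond the covariate.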

How the data were processed

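Limb bud cells were dissociated and profiled by droplet-based 10x single-cell RNA-seq. Per the submitters' processing notes the authors used Cell Ranger 6.0.1 and mm10 and deposited 1 matrix of whole UMI counts per library, which are not normalized. The study's methods state default parameters for Cell Ranger. The notes name Seurat 4.3.0.1 and the methods a later version, which does not bear on the raw counts.

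Barcodes with over 2500 genes, under 200000 UMIs and under 10% mitochondrial UMIs were kept and barcodes scored as doublets removed. Mesenchyme had at least 3 of 5 markers, at least 3 marker UMIs per 10000 and at most 1 marker of any other lineage. Body wall and mesothelium markers did not count here, also where no UMI of another lineage's markers was allowed. Position scores were cut into 3 (or 5) equal shares per library. UMIs were summed per library and gate (at least 20 cells). Of 32289 features, 32158 were placed on GRCm38 by the annotation, and 1809 genes on X or Y and 4 transgene rows were left out of the tests. Sums were tested with edgeR 4.0.16 (R 4.3.3; TMM, filterByExpr, glmQLFit and glmQLFTest, Benjamini-Hochberg over all genes tested, threshold 0.05), in 1 fit over the 9 libraries for genotype and with the library as a block between gates or lineages. Errors of fold changes are standard errors. CPM values use library totals, fold changes use TMM factors, so levels and fold changes are on different scales. In simulated counts, 72% of 200 genes changed by a log2 fold change of 1 were recovered in mutants against Wt (15973 genes, 5 false calls) and 88% between distal and proximal gates (14844 genes, 16 false calls).

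The named genes were the 10 members in every comparison, Grem1, the genes of the other retinoid list called in mutants against Wt or among the 3 largest in each direction between distal and proximal gates, and the 3 genes nearest to each member of at least 10 CPM over 9 Wt position gates. Of that list, the results in mutants against Wt are not reported here. The members, lists and gates were chosen with earlier results of these data known. The labels name separate replicates and the study's methods give 1 pair of forelimb buds per library, so the p-values measure the spread between embryos. Xist and Y-linked UMIs gave the sex of each embryo. Wt replicate 1 had 21.2 CPM of Xist beside 152.5 CPM of Y-linked UMIs, and E1C8Δ/Δ replicate 3 had 7.76 CPM beside 108.7 CPM. Both were taken as male. The other male libraries, Wt replicates 2 and 3 and E1C5Δ/Δ replicate 2, had 0.03 to 0.0809 CPM of Xist. The female libraries had 692 to 992 CPM. The source of the Xist UMIs in Wt replicate 1 and E1C8Δ/Δ replicate 3 was not tested. Alternatives were DESeq2 1.42.0, other scalings and filters, other gates and cuts, thinning to 10000 UMIs per cell, sex or the replicate number as a covariate, and each library left out in turn. Sex and the replicate number were used for the genotype comparisons only, so no interaction was refitted with them. The interactions across the anterior-posterior and core-peripheral axes, E1C8Δ/Δ against E1C5Δ/Δ, and the alternatives run for each mutant alone within the gates and along the axes were chosen after seeing the data. Counts were read with Python 3.11.15, numpy 2.4.6, pandas 2.3.3, scipy 1.17.1 and scikit-learn 1.9.0.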

Additional observations from a re-analysis of the deposited data

Results flagged for a closer look

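The following differences of a gate effect between mutants and Wt passed an interaction test (edgeR, adjusted p under 0.05), each as a log2 difference. Between anterior and posterior gates they were −2.47 for Aldh1a2, −0.26 for Crabp1 and 0.65 for Cyp26b1. Between core and peripheral gates they were −0.72 for Cyp26b1 and 0.90 for Rarb. Between distal and proximal gates they were 0.49 for Crabp1 and 0.22 for Crabp2. The value of Aldh1a2 rests on 3 to 61 UMIs in each mutant library, and the other values on genes seen in every library and gate. The 4 interactions along the anterior-posterior and core-peripheral axes of Cyp26b1, Crabp1 and Rarb and that of Crabp1 along the proximal-distal axis passed without each library in turn. None of the interactions was refitted with embryo sex as a covariate.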

How the results depend on the processing

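Members called were recounted under each alternative. For mutants against Wt over all mesenchyme the count of 3 became 4 with DESeq2 or no filter, 1 when no UMI of another lineage's marker was allowed and 0 with sex or the replicate block, where the log2 fold changes were −0.65 for Cyp26b1 (adjusted p = 0.0859), 0.74 for Rarb (0.0631) and 0.42 for Crabp1 (0.0698). The deviations of libraries from their genotype mean had correlations of −0.147 to 0.087 between same-numbered libraries and −0.158 to 0.264 between the others. With 3 libraries per genotype these values cannot show whether the numbers pair the embryos. For E1C8Δ/Δ the count of 2 became 5 with DESeq2, 3 with library totals or no filter, 1 with the strict gate and 0 with sex. For E1C5Δ/Δ the count of 2 became 3 with DESeq2 or no filter, 1 with the strict gate or thinning, and 0 with the replicate block, sex, or Wt and E1C5Δ/Δ fitted alone. The proximal count of 0 became 2 with DESeq2 or no filter and 1 without doublet removal or with thinning. The middle count of 2 became 1 with library totals, the strict gate, thinning or the replicate block, 3 with gates by Hoxa13, Hoxd13, Meis1 and Meis2 or 1 cut for all libraries, 4 with no filter and 0 with sex. The distal count of 3 became 4 with DESeq2, 5 with no filter, 2 without doublet removal, with the strict gate, thinning, the replicate block, gates by those 4 genes or 1 cut, and 0 with sex. The count of 7 between distal and proximal Wt gates became 6 with DESeq2 and 8 with gates by those 4 genes, that of 6 between anterior and posterior ones 7 in every setting run but DESeq2, that of 7 between core and periphery 8 with thinning or no filter, and that of 34 between lineages became 31 with thinning. The distal-proximal interaction count of 2 became 3 with DESeq2 or no filter and 1 with 1 cut. Without each library in turn the counts were 0 to 3 for the mutants, 0 to 4 for E1C8Δ/Δ, 0 to 2 for E1C5Δ/Δ, 0 to 1 proximally, 0 to 2 in the middle gate, 2 to 4 distally, 6 to 7 between distal and proximal Wt gates, 6 to 7 between anterior and posterior ones, 7 between core and periphery, 1 to 3 for the interaction and 33 to 35 between lineages. Aldh1a2 between distal and proximal Wt gates changed sign, to −0.0018 without doublet removal, −0.84 with gates by Hoxa13, Hoxd13, Meis1 and Meis2, −0.40 with 1 cut and −0.63 without Wt replicate 3 (−0.63 to 0.91 without each library). With the gates by those 4 genes this lower distal value passed the threshold (adjusted p = 0.0209). Rarb in the anterior-posterior interaction of E1C5Δ/Δ went from −0.11 to 0.0175 with 1 cut, and lay between −0.2322 and 0.0671 with 1 library left out. Rarb between core and periphery went to −0.088 without Wt replicate 2 (−0.088 to 0.15 without each library). The cause of these changes was not tested.

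Over all genes, 307 were called in mutants against Wt, 896 by DESeq2, 196 with library totals, 123 with the strict gate, 133 after thinning, 82 with the replicate block, 6 with sex, and 85 to 714 without a library. Genes called higher against lower distally in Wt were 5032 and 3525 with TMM and 3764 and 4561 with library totals, and those of the core 4122 and 4323 against 5156 and 3509. Depth limits Aldh1a2, Aldh1a3 and Cyp26a1, with at most 294 mesenchymal UMIs in a library.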
